A study of Mus musculus with 15 samples.

Results

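The interferon-inducible p200 genes form a cluster on mouse chromosome 1, and 10 of them were followed here through chromatin maps of bone marrow-derived macrophages (BMDMs), out of 21938 protein-coding genes. They are Ifi203, Ifi204, Ifi205, Ifi207, Ifi208, Ifi209, Ifi211, Ifi213, Mndal and Aim2. The members were taken by name from the gene family, and the family was chosen by its H3K27ac and H3K36me3 regions in these same WT and cKO libraries, so each difference between genotypes in these genes is given as a description without a test. With their 5 kb of upstream sequence they span chr1:173345879-174036810 (mm10), a stretch of 691 kb.

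BMDMs are macrophages grown from bone marrow cells in the presence of a growth factor. The cells came from C57BL/6 mice aged 8 to 10 weeks and were cultured for 6 to 8 days in medium conditioned by L929 fibroblasts, which supplies that factor. CUT&RUN, which sequences the DNA that an antibody-tethered nuclease cuts loose around a chromatin protein, was directed at the histone variant H3.3, at acetylated lysine 27 of histone H3 (H3K27ac) and at trimethylated lysine 36 of histone H3 (H3K36me3). H3.3 was mapped through an HA tag in knock-in mice whose H3f3b gene, one of the genes for H3.3, encodes a tagged protein. The marks were mapped in WT cells (H3f3a fl/fl H3f3b fl/fl, without Cre) and in H3.3 cKO cells (H3f3a fl/fl H3f3b fl/fl with LysM cre/cre), so both genotypes carried floxed alleles and differed by the Cre at the myeloid gene Lyz2. LysM-Cre acts only once a cell enters the myeloid lineage, and WT mice lacked the Cre insertion itself. Region lists of 10 libraries were used, 2 per group, and the 5 IgG samples of the series entered only as the controls of the authors' peak calling. No sample was treated with interferon, so the name of the family comes from general knowledge and was not measured in these libraries.

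Many p200 proteins combine a pyrin domain, which binds other pyrin domains, with HIN domains that bind DNA, but not every one holds both. AIM2 detects DNA in the cytosol and assembles an inflammasome with the adaptor ASC and caspase-1. The other members are mostly nuclear proteins that interferons induce through signal transducers and interferon regulatory factors, and the related human genes include IFI16 and MNDA. H3K27ac marks active promoters and enhancers, whereas H3K36me3 is laid down along the bodies of transcribed genes.

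RefSeq (GRCm38.p6) gave a promoter window for 9 of the 10 members, with 2 starts each for Ifi203 and Mndal. Ifi204 was not among them. Each window held 250 bases before the start and 50 after it, and was searched on both strands for the core of the interferon-stimulated response element (GAAA, any 2 bases, GAAA), for the STAT-type motif TTCNNNGAA and for the ETS motif GAGGAAGT. The first motif was found in 7 of these 9 members (Ifi203, Ifi205, Ifi207, Ifi208, Ifi211, Ifi213 and Mndal), beside 3.99% of the 27025 gene symbols with a window and 3.44% of the 32851 windows. The second was found in 0 of 9 members, beside 9.55% of symbols and 8.30% of windows, and the third in Aim2 alone, beside 3.69% and 3.20%. No member window held 2 kinds of motif. The letters GAAATCGAAA stood 73 bases upstream of the start of Ifi213, 58 bases upstream of Ifi208, 41 bases upstream of Ifi207, 36 bases upstream of the outer start of Mndal and 35 bases upstream of a start of Ifi203. Ifi211 and Ifi205 held GAAATTGAAA, 37 and 134 bases upstream of their starts. In Aim2 the ETS motif lay 113 bases upstream. Such matches are descriptions of letters, not of bound factors.

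The promoters on which the results turn are printed 5′ to 3′ on the strand of the gene, each with the 250 bases before its start. Capitals mark the motif matches. Ifi213 (chr1:173599273-173599522, minus strand) and Ifi208 (chr1:173673415-173673664, plus strand) are shown because they are nearly the same sequence beside unlike chromatin. Ifi209 (chr1:173630609-173630858, plus strand), Ifi207 (chr1:173741810-173742059, minus strand) and Ifi211 (chr1:173913047-173913296, minus strand) are shown because H3K27ac regions over them were wider in cKO, and Aim2 (chr1:173420354-173420603, plus strand) because its region was not.
Ifi213: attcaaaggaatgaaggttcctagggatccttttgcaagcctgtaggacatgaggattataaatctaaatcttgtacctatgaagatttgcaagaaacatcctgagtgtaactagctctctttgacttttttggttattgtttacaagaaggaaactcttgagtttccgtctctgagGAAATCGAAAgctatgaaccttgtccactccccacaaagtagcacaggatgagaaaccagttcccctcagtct
Ifi208: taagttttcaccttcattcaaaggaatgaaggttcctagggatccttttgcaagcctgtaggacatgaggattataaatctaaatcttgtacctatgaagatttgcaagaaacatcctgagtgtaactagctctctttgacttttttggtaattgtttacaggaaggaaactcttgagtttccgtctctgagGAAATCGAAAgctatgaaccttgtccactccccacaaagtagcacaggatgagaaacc
Ifi209: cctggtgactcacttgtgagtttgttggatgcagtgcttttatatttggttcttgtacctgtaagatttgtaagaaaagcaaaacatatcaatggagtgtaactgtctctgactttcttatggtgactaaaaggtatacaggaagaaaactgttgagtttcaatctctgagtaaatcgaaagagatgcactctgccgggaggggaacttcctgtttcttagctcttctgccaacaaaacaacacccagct
Ifi207: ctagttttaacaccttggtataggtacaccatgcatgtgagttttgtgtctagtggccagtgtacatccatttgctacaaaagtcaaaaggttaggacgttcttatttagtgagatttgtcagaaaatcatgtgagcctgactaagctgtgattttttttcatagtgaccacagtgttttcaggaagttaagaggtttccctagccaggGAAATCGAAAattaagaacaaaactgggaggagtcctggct
Ifi211: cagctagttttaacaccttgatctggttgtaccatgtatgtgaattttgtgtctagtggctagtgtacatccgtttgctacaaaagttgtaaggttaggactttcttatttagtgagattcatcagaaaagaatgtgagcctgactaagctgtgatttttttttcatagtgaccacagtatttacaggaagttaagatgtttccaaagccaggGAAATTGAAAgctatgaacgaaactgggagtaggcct
Aim2: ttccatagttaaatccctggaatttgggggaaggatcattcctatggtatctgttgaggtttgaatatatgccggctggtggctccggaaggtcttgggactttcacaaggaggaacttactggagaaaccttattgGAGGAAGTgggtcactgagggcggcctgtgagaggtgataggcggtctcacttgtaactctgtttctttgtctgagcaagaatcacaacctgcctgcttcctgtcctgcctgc

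At the best ungapped offset the 300-base windows of Ifi213 and Ifi208 were identical at 282 of 285 aligned bases (98.9%). Ifi206, a further p200 gene of the cluster that is not among the 10, shared 89.7% with Ifi208 and 88.4% with Ifi213. All other pairs of members shared 72.9% or less. Whether these copies affected the placement of short reads was not tested. The libraries were sequenced with paired reads of 25 bases, and of the 250 upstream bases only 14.4% in Ifi213 and 1.60% in Ifi208 began a 25-base word that occurs at 1 place in the genome. The share was 58.8% in Ifi209, 93.6% in Ifi207, 43.2% in Ifi211 and 100% in Aim2. These shares count single words, whereas the reads were aligned as pairs, so they are not shares of read pairs that could be placed. The Bowtie2 options in the study's methods name its local mode and none that reports several placements of a read, and whether such reads were filtered afterwards was not given in the sources used here.

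For each library, the percent of a gene's window (its GENCODE M21 body plus 5 kb upstream) that lay inside called regions was computed. A gene was called higher when both cKO libraries covered more of it than both WT libraries, and lower in the opposite case. Overlapping regions of the 4 libraries of a mark were merged, and such a region counted as gained if it was found in each cKO library but in neither WT library, and as lost in the opposite case. The lists give region positions without heights, so a region missing from a library is one that the peak caller did not pass, and its signal may still lie near the threshold. WT and cKO lists were called against separate IgG controls, whose part in the differences was not tested. In bulk libraries, more cells carrying a region and more of the mark per cell cannot be told apart. Tag totals ran from 5365319 to 29988098. They were 28366343 and 16444864 in WT and 29988098 and 25560110 in cKO for H3K27ac, and 15086387 and 14027132 in WT and 23782914 and 23503055 in cKO for H3K36me3, so the cKO H3K36me3 libraries were the deeper ones and the part of depth in the H3K36me3 values was not tested.

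H3f3a and H3f3b themselves carried regions in both genotypes. H3K27ac regions covered 58.3% and 52.3% of the H3f3b window in WT and 65.2% and 85.5% in cKO, so the lists do not show the deletion, and WT and cKO below are the genotypes as labelled. The study reported the deletion in BMDMs by PCR, by RNA and by western blot. It described H3f3b deletion as variable, complete in some cKO samples and partial in others. All 10 macrophage markers carried H3K27ac regions in both WT libraries and 9 of 10 in both cKO libraries, with a mean cover of 31.2 to 36.5% and 22.4 to 26.2%. The T cell markers had a mean H3K27ac cover of 0 to 0.0886% in WT and 1.43 to 2.21% in cKO, neutrophil markers 1.20 to 2.66% and 1.73 to 5.11%, and stromal markers 0 to 0.223% and 0.223 to 0.446%. Among these, Cd3e, Cd4, Cd8a, S100a8, S100a9, Ly6g, Col1a1, Col1a2 and Col3a1 had none in any H3K27ac or H3K36me3 library, whereas Cd3d, Mpo and Camp had H3K27ac regions in cKO libraries and in no WT library. The part of other cell types in the cluster's values was not tested. Dendritic cell markers had 3.95 to 7.09% and 5.15 to 7.73%, with Zbtb46 at 0.

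Across the cluster, cKO libraries held more covered length for both marks. H3K27ac regions covered 57.5 and 50.8 kb in the WT libraries and 65.9 and 77.5 kb in the cKO libraries, or 54.2 ± 4.73 and 71.7 ± 8.21 kb (SD, n = 2 each). H3K36me3 regions covered 114 and 113 kb in WT and 165 and 217 kb in cKO, or 113 ± 0.791 and 191 ± 37.0 kb (SD, n = 2 each). The 4 libraries of each mark did not overlap between genotypes. The cKO excess was 17.5 kb for H3K27ac and 78.1 kb for H3K36me3. Over the narrower span from Ifi213 to Ifi203, chosen after the values were seen, it was 17.0 and 53.0 kb.

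The whole lists went the other way. They covered 82.2 ± 10.5 Mb in WT and 54.1 ± 11.2 Mb in cKO for H3K27ac, and 167 ± 4.89 and 127 ± 51.5 Mb for H3K36me3 (SD, n = 2 each). Both comparisons had an exact two-sided permutation p of 0.333, the smallest that 2 against 2 libraries can give, so no such test could pass 0.05. By library, the H3K36me3 lists covered 164 and 170 Mb in WT and 90.7 and 163 Mb in cKO. The lower cKO mean for H3K36me3 thus came almost wholly from cKO replicate 1. Per Mb of list, the cluster held 661 ± 26.9 bp of H3K27ac in WT and 1340.1 ± 125 bp in cKO, and 678 ± 24.6 and 1575.5 ± 347 bp of H3K36me3 (SD, n = 2 each). The 500 kb on each side of the cluster, mostly olfactory receptor genes, held 4.49 ± 1.56 kb of H3K27ac in WT and 3.82 ± 2.0 kb in cKO (n = 2 each, SD, exact permutation p = 0.667) and no H3K36me3 region in any library. Of 26 protein-coding genes that reach into these flanks, 5 carried a region in their window in any of the libraries. Among these, Fmn2 runs past the flank, and its only region (0.154% in cKO H3K36me3 replicate 2) lay beyond it.

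**Figure D1:**
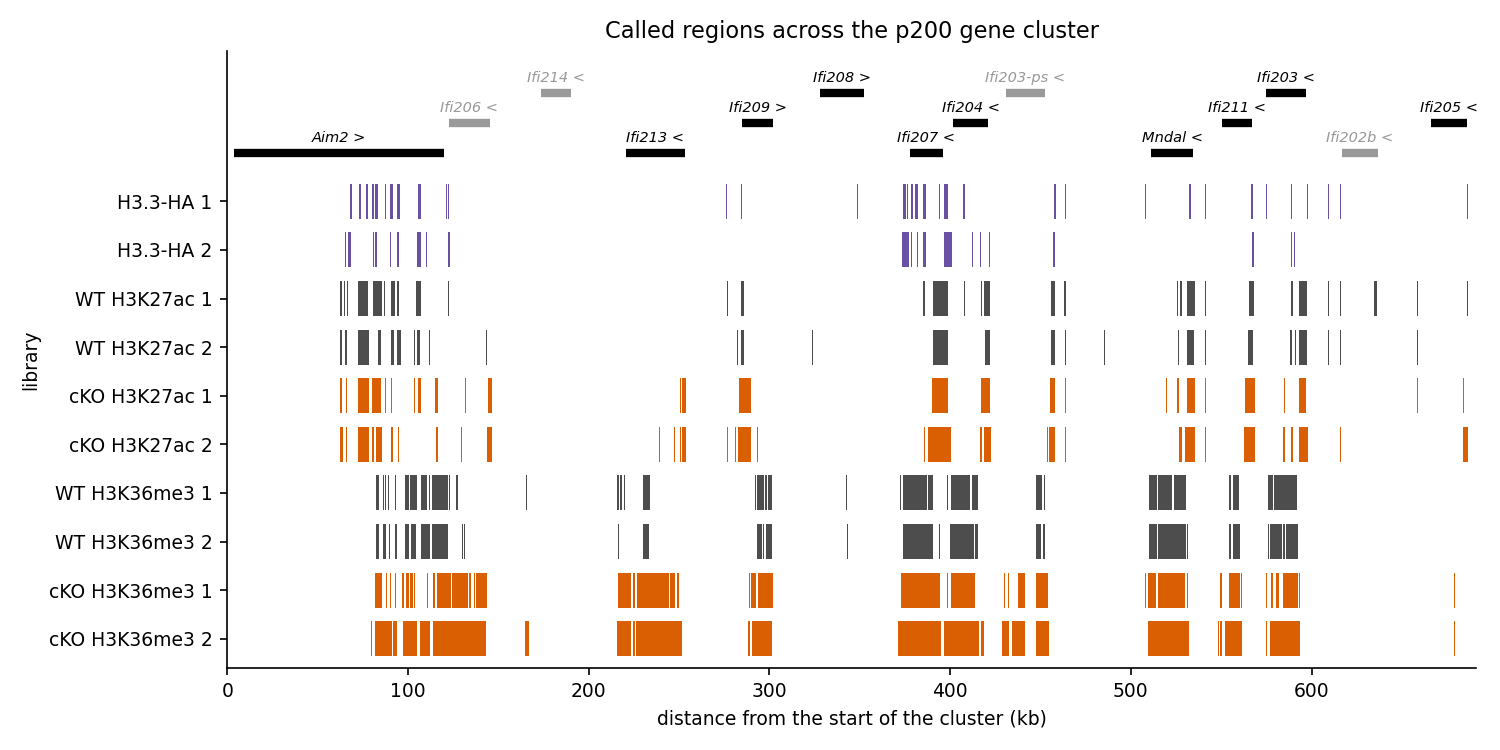
Called regions of the 10 libraries (rows) across the cluster, by distance in kb from its start, with RefSeq gene bodies above (members black, other p200 genes grey, arrowheads giving the strand). H3K36me3 covers 113 and 114 kb in the WT libraries and 165 and 217 kb in the cKO libraries, with long cKO blocks over Ifi213 and Ifi206 where the WT rows are nearly empty.

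Aim2 encodes the cytosolic DNA sensor of the inflammasome. In the annotation it reaches from 173350879 to 173466040 on the plus strand, and the RefSeq start used here lies far inside that span, at 173420604. H3K27ac regions covered 15.5% and 13.5% of its window in WT and 14.1% and 12.6% in cKO. The groups overlapped, at 14.5% ± 1.45 and 13.3% ± 1.05 (SD, n = 2 each). Over the start itself, the H3K27ac region measured 5.33 and 5.99 kb in WT and 5.97 and 5.60 kb in cKO. H3K36me3 regions covered 17.6% and 18.8% in WT and 13.2% and 26.6% in cKO, so the cKO replicates lay on either side of the WT pair. Widths over the Aim2 start thus lay within the same range in both genotypes. Aim2 held 1 gained H3K27ac region, an intronic one at chr1:173460936-173462679 that measured 1.37 and 1.24 kb in the cKO libraries.

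Ifi213 had the largest H3K36me3 difference of the 10. No H3K27ac region lay in its window in either WT library, while regions covered 7.63% and 10.7% of it in the cKO libraries. The cKO libraries both carried a region over the start, chr1:173597474-173599869 in replicate 1 and chr1:173597468-173599782 in replicate 2, which reached 0.597 and 0.510 kb upstream and 1.80 kb into the gene in both. This interval covers the whole printed promoter. H3K36me3 regions covered 9.97% and 9.16% of the window in WT and 66.1% and 76.9% in cKO, a difference of 61.9 points. The widest of them grew from 3.79 and 3.48 kb in WT to 17.7 and 25.1 kb in cKO, and over the RefSeq body the cover went from 11.0% ± 0.652 to 82.2% ± 8.73 (SD, n = 2 each). No H3.3-HA region lay in the window in either replicate.

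Ifi208, whose promoter is almost the same sequence, carried nearly nothing. In H3K27ac the only region in its window was 1 of 0.501 kb in WT replicate 2, covering 1.69%. In H3K36me3 each WT library held 1 region of 0.501 kb, close to the 500 bp peak size of the caller, and these lay at different places (chr1:173688076-173688576 and chr1:173688635-173689135). Neither cKO library held any region there, so Ifi208 was the 1 member called lower for H3K36me3, at 1.69% in both WT libraries and 0% in both cKO libraries. No region covered its start in any of the 10 libraries. Words of 25 bases that occur at 1 place made up 49.0% of the Ifi208 window and 47.0% of the Ifi213 window, but only the small shares given above at the promoters, and the part of read placement in the contrast between these genes was not tested. Counting only bases that begin such a word inside the same called regions, Ifi213 was called higher for both marks. The regions were called before this count, so it does not show how reads were placed.

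Ifi206, the third copy of this promoter, resembled Ifi213. Its H3K27ac cover was 0.301% and 1.82% in WT and 9.73% and 10.3% in cKO, with regions of 2.04 and 2.34 kb over its start in the cKO libraries and none over it in WT. Its H3K36me3 cover was 4.74% and 3.64% in WT and 64.9% and 74.8% in cKO. In cKO replicate 2 a single H3K36me3 region of 29.6 kb ran from the end of Aim2 across Ifi206, and the Aim2 window takes in part of it. The pseudogene Ifi203-ps, also outside the 10, had 15.5% and 12.3% H3K36me3 cover in WT and 42.3% and 60.1% in cKO, with 33.3% of its bases beginning a 25-base word found at 1 place. Ifi214 held no region in any library, although its promoter carries GAAATCGAAA 79 bases upstream of the start.

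**Figure D2:**
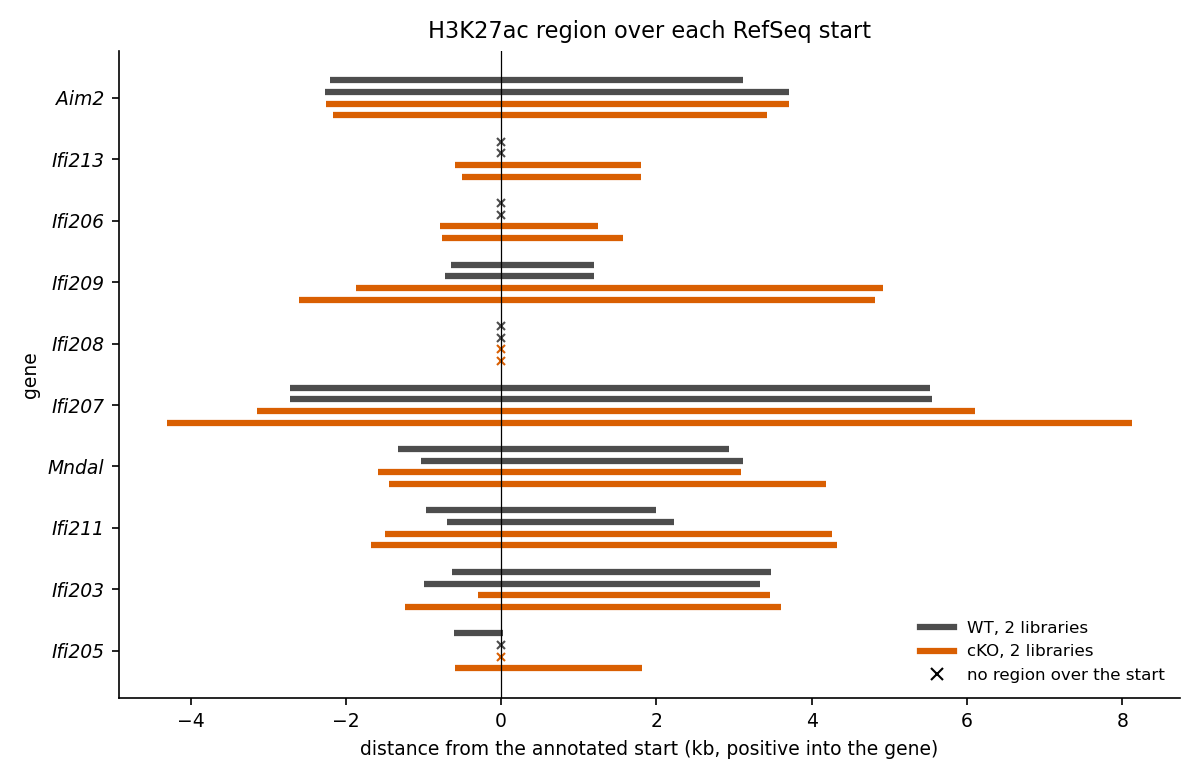
The H3K27ac region over the RefSeq start of each gene, by distance in kb from that start (positive into the gene), with 1 bar per library (2 WT grey, 2 cKO orange) and a cross where no region covered the start. For the genes with 2 starts the inner one is used, Ifi206 is not among the 10 members, and Ifi204 has no entry. Only cKO libraries have bars at Ifi213 and Ifi206, none has one at Ifi208, and the bars of Ifi209 measure 1.84 and 1.93 kb in WT and 6.78 and 7.43 kb in cKO.

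Ifi209, Ifi207 and Ifi211 already carried H3K27ac at their starts in WT and had wider regions in cKO. At Ifi209 the region over the start measured 1.84 and 1.93 kb in WT and 6.78 and 7.43 kb in cKO, extending 1.19 and 1.20 kb into the gene in WT and 4.92 and 4.81 kb in cKO. Ifi209 window cover was 10.6% and 11.0% in WT and 30.8% and 39.0% in cKO, the largest H3K27ac difference of the 10 (24.1 points). Its H3K36me3 cover was 32.9% and 32.0% in WT and 53.1% and 57.0% in cKO. Both Ifi209 pairs were well apart, since the SDs were at most 5.80 points.

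At Ifi207 the region over the start measured 8.24 and 8.27 kb in WT and 9.27 and 12.4 kb in cKO. Cover of its window by H3K27ac was 39.3% and 35.4% in WT and 41.9% and 55.9% in cKO, a difference of 11.5 points that was close to the cKO SD of 9.94. Over the RefSeq body alone the groups overlapped, at 35.2% and 30.3% in WT and 33.3% and 47.6% in cKO. H3K36me3 covered 59.5% and 63.4% in WT and 75.9% and 91.3% in cKO, which left little of the gene uncovered in cKO replicate 2. Ifi207 was also the member with the most H3.3-HA, at 29.8% and 27.9%.

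At Ifi211 the region over the start measured 2.96 and 2.93 kb in WT and 5.75 and 6.00 kb in cKO, and most of the added length lay inside the gene (1.99 and 2.23 kb in WT, 4.26 and 4.32 kb in cKO). The window cover was 13.7% and 13.5% in WT and 26.5% and 27.6% in cKO, the tightest replicates among the members called higher. H3K36me3 covered 20.5% and 23.2% in WT and 28.9% and 43.6% in cKO. Only 26.8% of the Ifi211 window begins a 25-base word found at 1 place, the lowest share of the 10.

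Ifi204, Mndal and Ifi203 carried H3K36me3 over much of their bodies already in WT, at means of 67.2%, 79.6% and 67.0% of the RefSeq body. Ifi207 did so too, at a WT mean of 70.9%. Ifi204 encodes p204, a protein related to human IFI16 and linked to DNA sensing. H3K27ac covered 17.7% and 12.2% of its window in WT and 21.4% and 18.0% in cKO. The groups did not overlap, but the lowest cKO value exceeded the highest WT value by less than the SD of either pair (3.87 and 2.38 points). Over the RefSeq body alone they overlapped, at 17.2% and 10.9% in WT and 21.6% and 16.5% in cKO. H3K36me3 covered 53.4% and 54.4% in WT and 49.4% and 64.0% in cKO, with overlapping groups.

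Mndal is the mouse relative of human MNDA. Its GENCODE span (173849126 to 173942491) runs across Ifi211 and most of Ifi203, so the windows of these genes share regions, whereas its RefSeq body is 173857215 to 173880382. In the GENCODE window H3K27ac covered 14.9% and 15.1% in WT and 17.1% and 21.7% in cKO, and H3K36me3 39.9% and 40.6% in WT and 40.9% and 52.3% in cKO. In the RefSeq body H3K36me3 covered 79.6% ± 4.07 in WT and 84.6% ± 9.22 in cKO (n = 2 each, SD), and with RefSeq bounds Mndal was no longer called higher for H3K36me3. The H3K27ac region over its outer start measured 4.28 and 4.15 kb in WT and 4.67 and 5.63 kb in cKO.

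Ifi203 overlapped between genotypes for both marks. H3K27ac covered 19.9% and 22.0% in WT and 15.6% and 25% in cKO. H3K36me3 covered 57.2% and 53.2% in WT and 46.4% and 63.9% in cKO, with means of 55.2% in both genotypes. The region over its inner start measured 4.11 and 4.34 kb in WT and 3.76 and 4.85 kb in cKO. In Ifi203, Ifi204 and Aim2 alike, H3K36me3 cover was lowest in cKO replicate 1 and highest in cKO replicate 2, the libraries whose whole lists covered 90.7 and 163 Mb.

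Ifi205 had little of either mark. H3K27ac covered 2.54% and 0% of its window in WT and 2.02% and 9.77% in cKO, with a region over the start in 1 library of each genotype. H3K36me3 was absent from both WT lists and covered 2.58% and 3.17% in cKO, through 1 gained region of 0.641 and 0.786 kb at chr1:174024581-174025479, over an exon.

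**Figure D3:**
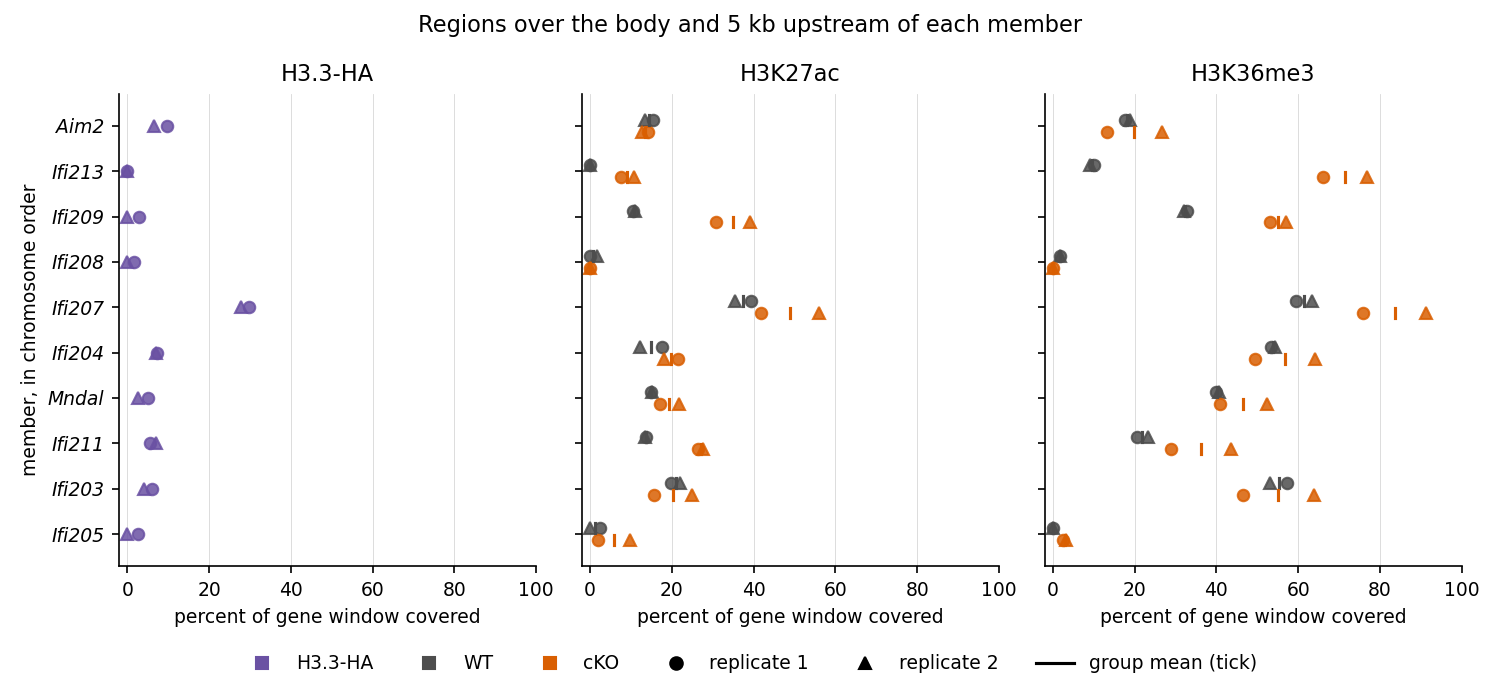
Percent of each member's window (body plus 5 kb upstream) inside called regions, for H3.3-HA, H3K27ac and H3K36me3, with 1 point per library (circle replicate 1, triangle replicate 2) and a tick at the group mean. Ifi213 goes from 9.97% and 9.16% to 66.1% and 76.9% in H3K36me3, whereas the points of Aim2, Ifi203 and, for H3K36me3, Ifi204 overlap between WT and cKO.

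By these rules, 6 of the 10 members were called higher for H3K27ac (Ifi213, Ifi209, Ifi207, Ifi204, Mndal and Ifi211), beside 17.4% of the 12767 genes whose window held any H3K27ac region, and 0 were called lower, beside 38.2%. For H3K36me3, 6 were called higher (Ifi213, Ifi209, Ifi207, Mndal, Ifi211 and Ifi205), beside 7.85% of 11975 genes, and 1 lower (Ifi208), beside 37.7%. All 10 members held some region of each mark, so none was filtered out. Ifi213 for H3K27ac and Ifi205 for H3K36me3 held regions in cKO libraries alone, so they could not be called lower. Ifi208 held regions in WT libraries alone for both marks, so it could not be called higher. Both marks were called higher in 5 members (Ifi213, Ifi209, Ifi207, Mndal and Ifi211), beside 2.57% of 10774 genes. Gained H3K27ac regions touched 4 members (Aim2, Ifi213, Mndal and Ifi203), beside 17.3% of genes, and lost ones 0, beside 37.3%. Gained H3K36me3 regions touched 6 members (Ifi213, Ifi209, Mndal, Ifi211, Ifi203 and Ifi205), beside 8.47%, and lost ones 0, beside 23.6%. The members were chosen with this contrast known and their neighbours share regions, so nothing is read from these shares.

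The median difference of cKO minus WT was 4.67 points over the 10 members and -1.02 points over all tested genes for H3K27ac. For H3K36me3 it was 4.63 points over the members and -4.99 points over all tested genes. The difference was above 0 in 7 members for H3K27ac (not in Aim2, Ifi208 and Ifi203) and in 8 for H3K36me3 (not in Ifi208 and Ifi203).

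**Figure D4:**
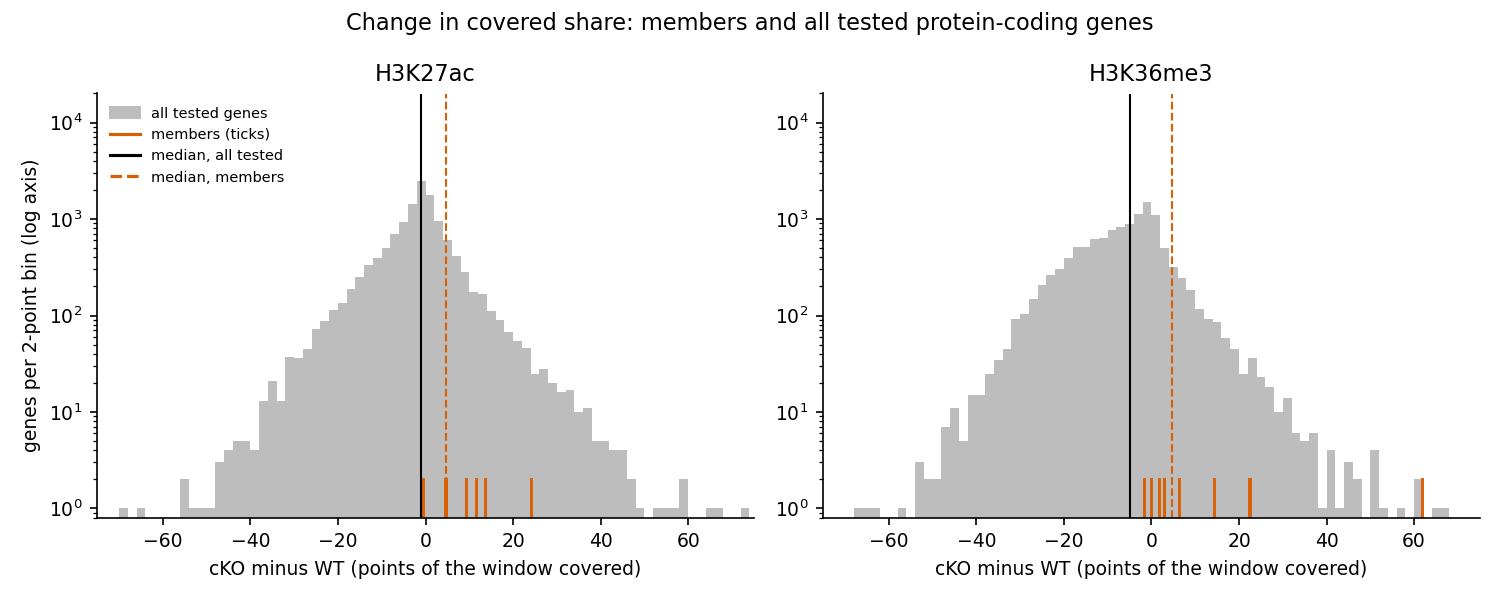
Genes per 2-point bin of the cKO minus WT difference in window cover (log axis), over 12767 genes for H3K27ac and 11975 for H3K36me3, with short orange ticks for the 10 members and lines at the medians. The members' median lies at 4.67 points against -1.02 for H3K27ac and at 4.63 against -4.99 for H3K36me3, and the tick at 61.9 points is Ifi213.

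Most of the merged width in the cluster lay in regions that all 4 libraries of a mark held. In the cluster 15 merged H3K27ac regions were present in all 4 libraries, with a summed width of 67.9 kb, while the 4 gained ones summed to 5.77 kb. The gained H3K27ac regions were intronic by their midpoints, 2 of them in Ifi213, 1 in Aim2 and 1 in the shared part of Ifi203 and Mndal. The 1 lost H3K27ac region, chr1:173954977-173955680, lay between genes. For H3K36me3, 14 merged regions present in all 4 libraries summed to 201 kb and 7 gained ones to 16.7 kb, of which 2 lay in Ifi203-ps outside the members' windows. These widths are not the added length itself, because merging joins neighbouring regions. The merged region chr1:173458922-173489843, held by all 4 libraries, runs from the end of Aim2 across Ifi206. H3K36me3 cover of Ifi206 was 4.74% and 3.64% in WT.

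Covered bases were shared more within a genotype than between genotypes inside the cluster. The Jaccard index (bases covered in both libraries over bases covered in at least one of them) was 0.636 and 0.644 within WT and cKO for H3K27ac and 0.447 to 0.503 between them. For H3K36me3 it was 0.801 and 0.737 within and 0.499 to 0.508 between. The index also falls when libraries differ in covered length. For H3K36me3 these lengths were 114 and 113 kb in WT and 165 and 217 kb in cKO. The lower values between genotypes are therefore not separate from the difference in length, and nothing further is read from them.

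Along the RefSeq bodies, cut into 10 equal parts from 5′ to 3′, mean H3K27ac lay nearer the 5′ end than mean H3K36me3 in both genotypes. H3K27ac was densest in part 1, at a mean of 57.1% over the 10 members in WT and 73.0% in cKO. Part 2 showed the wider difference, 26.4% in WT (26.3 and 26.4% in the libraries) and 52.8% in cKO (52.4 and 53.3%). From part 5 on it was 7.75% or less in WT and 9.02% or less in cKO. Both maxima lay in part 7 and include Aim2, whose RefSeq body begins at 173349547, far upstream of the start at 173420604. Part 7 of Aim2 held that start, with H3K27ac at 74.7 and 55.1% in WT and 84.3 and 74.6% in cKO. Parts 1 to 5 of Aim2 held no region in any library, so the means do not align Aim2 by its start. H3K36me3 began further inside the gene, at 4.19% of part 2 in WT and 32.6% in cKO (22.5 and 42.6% in the libraries). In part 4 it was 38.7% in WT and 63.3% in cKO, and in part 7 it was 63.8% and 70.3%. In part 1 it was 0.80% and 5.55%, in part 8 it was 55.1% and 69.9%, and in part 10 it was 47.4% and 58.1%, and the libraries of the genotypes did not overlap in any of these parts. In part 9 the cKO libraries (48.2 and 70.5%) enclosed the WT ones (50.3 and 50.7%).

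**Figure D5:**
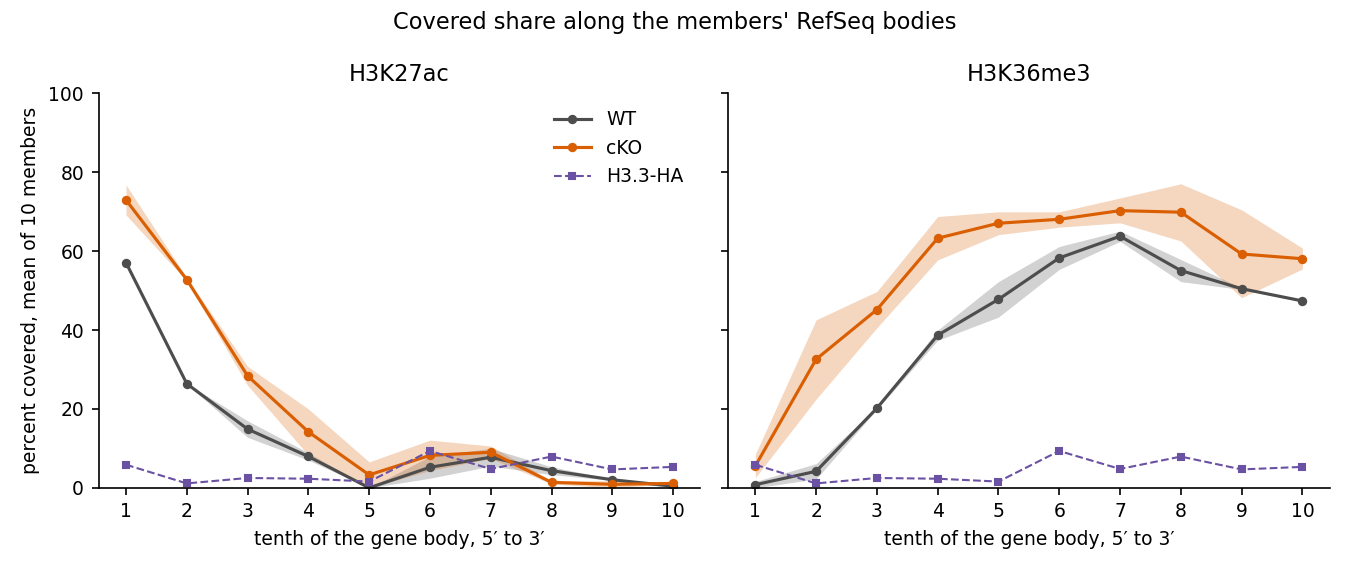
Mean percent covered over the 10 members in each of 10 equal parts of the RefSeq body (the horizontal axis, 5′ to 3′), for H3K27ac and H3K36me3 (WT grey, cKO orange, shaded between the 2 libraries) with H3.3-HA as a dashed line in both panels. H3K27ac is at 26.4% in WT and 52.8% in cKO in part 2, and H3K36me3 at 4.19% and 32.6% there. The Aim2 start used elsewhere lies in part 7 of its body.

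H3.3-HA regions covered 34.4 and 25 kb of the cluster, or 29.7 ± 6.65 kb (SD, n = 2). A region in both replicates was found in 6 members (Aim2, Ifi207, Ifi204, Mndal, Ifi211 and Ifi203), beside 44.2% of the 21938 genes. Ifi207 had the highest cover (29.8% and 27.9%), followed by Aim2 (9.64% and 6.63%), Ifi204 (7.17% and 7.13%), Ifi211 (5.53% and 7.06%), Ifi203 (6.01% and 4.17%) and Mndal (5.02% and 2.71%). Ifi207 stood apart, and below it each neighbour in this order overlapped the next or differed from it by less than an SD. Ifi209 (2.85%), Ifi205 (2.55%) and Ifi208 (1.69%) had a region in replicate 1 only, and Ifi213 in neither. Of the RefSeq starts, only that of Ifi211 lay under H3.3-HA in both replicates.

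H3.3-HA and the marks met more often than not in the WT H3K27ac replicate 1 list, which overlapped 24 of 35 H3.3-HA regions of replicate 1 and 14 of 21 of replicate 2. With WT H3K27ac replicate 2 the counts were 18 of 35 and 8 of 21, and with WT H3K36me3 they were 13 and 14 of 35 and 12 and 11 of 21. Of the 15 H3K27ac regions present in all 4 libraries, 13 touched an H3.3-HA region in at least 1 replicate, and of the 4 gained regions 0 did. For H3K36me3 these counts were 9 of 14 and 1 of 7. The classes differed in width, with 67.9 kb for the 15 shared H3K27ac regions and 5.77 kb for the 4 gained ones. Wider regions have more room to touch another region, and the shares over all regions of the lists are not given here. Nothing is therefore read from these counts. The H3.3-HA libraries were the shallowest of the 10, at 6951296 and 5365319 tags.

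Sequence repeats run through the whole family. Of the cluster, 54.5% of bases begin a 25-base word found at 1 place, and inside the called regions this share was 67.4 and 67.6% for WT H3K27ac, 61.7 and 62.7% for cKO H3K27ac, 63.4 and 64.1% for WT H3K36me3 and 58.1 and 59.3% for cKO H3K36me3. It ranged from 26.8% in the Ifi211 window to 92.8% in the Aim2 window. When only such bases were counted, the cKO excess was 8.0 kb for H3K27ac and 40.0 kb for H3K36me3. These lengths are shorter by construction, since only 54.5% of the cluster's bases could count. Ifi213, Ifi209, Ifi207 and Ifi211 were then called higher for both marks. Mndal was so for H3K27ac alone, Ifi205 for H3K36me3 alone, and Ifi204 for neither. This count keeps the regions as the authors called them, so it does not show how reads were placed. The part of repeated sequence in these values was not tested.

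Genes that act with the family were read by the same rules. Of 14 AIM2 inflammasome and pyroptosis genes, Aim2 included, 2 were called higher and 6 lower for H3K27ac (Gsdmd and Mefv, against Casp1, Casp4, Nlrp3, Nlrc4, Nlrp1b and Ninj1), and 3 higher and 2 lower for H3K36me3 (Pycard, Casp1 and Nlrp3, against Nlrc4 and Mefv). None was higher for both marks. All 14 were tested for H3K27ac and 13 for H3K36me3, and over all genes 17.4% were higher and 38.2% lower for H3K27ac and 7.85% and 37.7% for H3K36me3. Gsdmd, the pore-forming protein that the inflammasome cleaves, had H3K27ac cover of 16.3% and 12.9% in WT and 23.8% and 44.9% in cKO, and Casp1, its protease, 57.4% and 39.7% in WT and 24.9% and 35.1% in cKO.

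Of 15 matched cytosolic DNA sensing genes, 4 of 14 tested were called higher and 6 lower for H3K27ac and 1 of 15 higher and 3 lower for H3K36me3, beside the same shares over all genes. Zbp1, a sensor of Z-form nucleic acids, was the 1 gene of this list called higher for both, with H3K36me3 at 10.2% and 19.2% in WT and 54.8% and 62.5% in cKO. Of 15 interferon receptor and JAK-STAT genes, 14 were tested for each mark, of which 6 were higher and 4 lower for H3K27ac and 3 higher and 5 lower for H3K36me3, beside the same shares. Usp18, a negative regulator of interferon signalling, was called higher for both. From none of these 3 lists is a difference from all genes read. The H3K36me3 cover of Usp18 was 27.4% and 31.2% in WT and 54.3% and 70.8% in cKO.

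The other interferon-induced families with clustered genes were called higher for both marks in 5 of 6 Ifit genes, 6 of 11 matched Oas and Oasl genes and 4 of 8 matched Schlafen genes, beside 2.57% of all genes tested for both, and in none was a gene called lower. In this order, 6, 7 and 8 genes were tested for H3K27ac and 5, 8 and 6 for H3K36me3. The matched counts thus include genes without a region, which the 2.57% leaves out. These families and the p200 genes share the same libraries, and the counts stand side by side without a test between them. Over the 10 libraries, the 4 protein-coding genes outside the cluster whose window cover came nearest to the median of the members were Grpel2, Racgap1, Parvg and Trim56, with mean absolute differences of 4.37 to 4.85 points.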

How the data were processed

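Per the labels, the file headers and the study's methods, the authors mapped paired reads of 25 bases to mm10 with Bowtie2 in very sensitive local mode after trimming with cutadapt, and called regions in each library separately with HOMER findPeaks in histone style. Peaks of 500 bp at least 1000 bp apart were sought, per the file headers, with a 4-fold excess over the IgG control, with Poisson thresholds of 1e-03 and, over the control, 1e-04, and with local filtering over 10000 bp. The authors deposited the start and end coordinates of each region with a constant score, so the lists hold no peak heights. Versions of cutadapt and HOMER, and any later filter on reads with several placements, were not given in the sources used here. The lists of 10 libraries were used, 2 per group, and 0 columns of other samples were set aside. Nothing in the labels ties the replicates to separate mice beyond calling them biological replicates.

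Windows were GENCODE M21 gene bodies plus 5 kb upstream, in protein-coding genes. Coverage, calls and merged regions (overlap of at least 1 bp) were computed in Python 3.11.15 with numpy 2.4.6, pandas 2.3.3 and numba 0.67.0, and drawn with matplotlib 3.10.9. The steps were tested on simulated regions. Unique 25-base words were counted on both strands of the primary mm10 genome. Promoters came from RefSeq GRCm38.p6. Whole lists and flanks were compared by exact two-sided permutation over libraries. Members are described without a test. All members and the genes of the lists called in either direction could be named, together with the 5 genes nearest to the members' median. A few results that fall under this rule or the marker lists are not reported here. The members and lists were chosen with earlier results of these data known. Alternatives covered the window, region width, overlap, list length, repeated words, replicate pairing and each replicate left out. RefSeq bounds, crossed pairing and the narrower span were chosen after seeing the data.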

Additional observations from a re-analysis of the deposited data

How the results depend on the processing

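Most counts and lengths kept their size under other settings, although the members behind a count could change. With gene bodies alone, 5 members were higher for H3K27ac, with Ifi205 and without Ifi207 and Ifi204. With the same number of regions in each list, the H3K27ac difference of Ifi203, which was not called, went from -0.629 to 0.519 points, within its spread between replicates of 4.83 points. With annotated starts alone, 3 members were higher and 1 held a gained region for H3K27ac, and for H3K36me3 1 was higher, 0 lower and 0 gained. With 20 kb on both sides, 2 members held a lost H3K27ac region and 0 were lower for H3K36me3. With regions of at least 1 kb, 1 member held a lost H3K27ac region. For H3K36me3, 4 were then higher (Ifi213, Ifi209, Ifi207 and Ifi211, without Mndal and Ifi205), 0 were lower and 3 gained. H3.3-HA then covered 18.8 kb of the cluster in place of 29.7 kb. Requiring 50% of a merged region to be covered gave 1 member with a lost H3K27ac region. Over unique words the cKO excess was 8.00 kb for H3K27ac and 40.0 kb for H3K36me3. Only 54.5% of the cluster's bases could count there, so these lengths are shorter by construction.

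Leaving out 1 library at a time gave 1 member lower for H3K27ac each time (Ifi208 without WT replicate 1, Ifi203 without cKO replicate 2, otherwise Aim2). It gave 1 to 4 members with a lost H3K27ac region, 1 to 4 lower for H3K36me3 and 0 to 3 with a lost H3K36me3 region. The 4 lower for H3K36me3 arose without cKO replicate 2, and were Aim2, Ifi208, Ifi204 and Ifi203. Without cKO replicate 1, 9 members were higher for H3K36me3 rather than 6. Without H3.3-HA replicate 2, 9 members rather than 6 held an H3.3-HA region. The cluster excess ranged from 11.7 to 23.4 kb for H3K27ac and from 52.0 to 104 kb for H3K36me3, and the lowest of each was the value without cKO replicate 2.

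The labels number the replicates, but nothing ties the same numbers across genotypes, and deviations of same-numbered libraries correlated at -0.101 for H3K27ac and 0.104 for H3K36me3 across genes. With the replicate block, 6 members were higher and 1 lower (Aim2) for H3K27ac, and 6 higher and 1 lower for H3K36me3. The paired excess was 17.5 kb (SD 12.9, n = 2 pairs) and 78.1 kb (SD 37.8, n = 2 pairs). With crossed pairing, 7 members were higher and 0 lower for H3K27ac. With 2 libraries per group and no peak heights, the depth of a missing region cannot be judged.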
